A study of Mus musculus with 43 samples.

Results

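The AP-1 and immediate early genes described here are Jun, Junb, Jund, Fos, Fosb, Fosl1, Fosl2, Atf3, Egr1 and Klf6. They were taken by symbol, and all 10 were found among the 22462 genes of the authors' deposited table and among the 11362 genes that the authors tested. The series compared E14 (ES-E14TG2a) mouse embryonic stem cells with the genotype Control against the same line with the genotype MTF2 KO, both grown with LIF on gelatin. MTF2 is a Polycomb-like subunit of Polycomb repressive complex 2, which places the repressive mark H3K27me3 on histone H3. Of 43 samples, 6 RNA-seq libraries, called biological replicates by the series design and split into 3 per genotype, stand behind the values. The other samples (36 ChIP-seq samples, with rescue by wild-type or K339A MTF2 among them, and 1 input) were not analysed here. The sources used here do not say how the knockout was made, or whether it was 1 clone or several.

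AP-1 is a dimeric transcription factor made of proteins that share a basic DNA-contacting region and a leucine zipper. JUN proteins pair with each other or with FOS and ATF proteins, while FOS proteins need a JUN partner. Most genes of the group are immediate early genes: growth factors, serum and stress induce their transcripts within minutes, without new protein synthesis, through MAP kinases that act on SRF, ETS and CREB family factors already present. EGR1 and KLF6 are zinc finger factors induced in the same way. Because the transcripts are short-lived, their steady level follows recent signalling and handling of the cells.

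For each gene and group, 1 pooled FPKM (fragments scaled to transcript length and library size) was deposited, so no SD, n per value or depth per library can be given, and the values of single libraries are not shown. Differences are given as a log2 ratio of knockout over control, with 0.5 added to both FPKM values, a step that shrinks the changes of low genes. A call means a Cuffdiff q, the authors' adjusted p, at or under 0.05. The genes were chosen by symbol with the FPKM of this same comparison known, so their FPKM values, ratios and q are a description and not a test. Mtf2 itself (chromosome 5) was at 74.3 FPKM in the control and 44.7 FPKM in the knockout cells in the authors' deposited table, a log2 ratio of -0.73 with a Cuffdiff q of 0.0496, and thus at 60.2% of the control level. Its call was lost when q was rebuilt from the deposited test statistic (q = 0.755).

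Of the 10 genes, 4 were called higher in knockout cells (Atf3, Jun, Klf6 and Egr1), 0 were called lower and 6 stayed uncalled. The background was 784 of 11362 tested genes called higher (6.90%) and 685 called lower (6.03%). The pooled FPKM was higher in knockout than in control cells for 9 of the 10 genes and lower for Jund. Atf3 was the furthest from 0, at percentile 99.8 of the log2 ratios of all tested genes, followed by Jun at percentile 98.9. Fosb, Fosl1 and Fosl2 were under 1 FPKM in control cells. No tested gene (0 of 11362) was under 1 FPKM in control and knockout cells alike, so these 3 could be tested only because they were higher in knockout cells, and their direction carries no information of its own. The 1521 tested genes under 2 FPKM in control, a range that also holds Jun, Fos and Atf3, had a median log2 ratio of 0.81, and 9.93% of them were called higher.

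**Figure D1:**
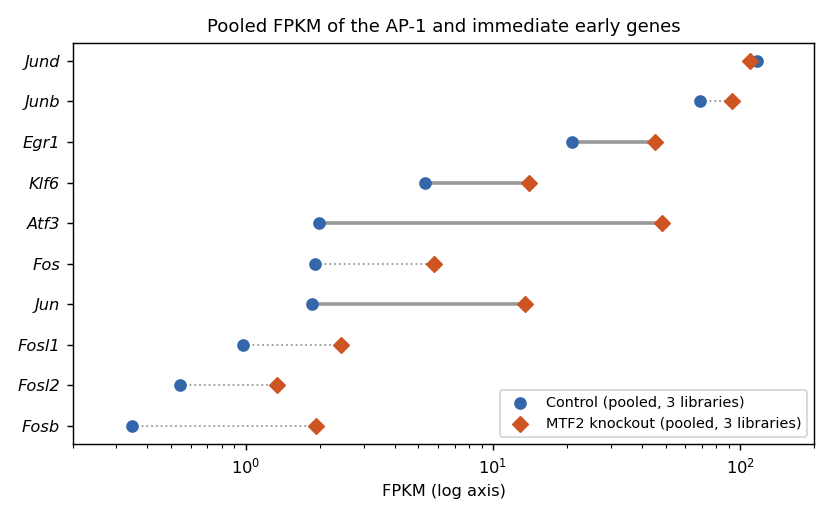
Pooled FPKM (log axis) of the 10 genes in control (circles) and MTF2 knockout cells (diamonds), 1 value per group from 3 libraries each, with no error available. Solid lines join the 4 genes called higher and dotted lines the 6 not called; Atf3 spans the widest gap, from 1.98 to 48.4 FPKM, and the Jund symbols nearly coincide.

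In control cells the order of the length-scaled levels was Jund, Junb, Egr1, Klf6, Atf3, Fos, Jun, Fosl1, Fosl2 and Fosb. In knockout cells it was Jund, Junb, Atf3, Egr1, Klf6, Jun, Fos, Fosl1, Fosb and Fosl2. Atf3 moved past Egr1 and Klf6, and Jun moved past Fos. With pooled values, it cannot be said which neighbours in either order differ beyond the spread between libraries.

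Jund and Junb had the highest levels of the 7 JUN and FOS family genes in both groups. Jund (ENSMUSG00000071076.6, chromosome 8, 70698949 to 70700616, mm10), a constitutively expressed JUN gene, was listed at 117 FPKM in the control and 109.6 FPKM in the knockout cells (log2 ratio -0.10, Cuffdiff q = 0.824). Junb (ENSMUSG00000052837.6, chromosome 8, 84976910 to 84978718), whose protein can antagonise JUN on some promoters, stood at 68.9 and 92.5 FPKM (log2 ratio 0.42, Cuffdiff q = 0.233). Neither was called. Jun (ENSMUSG00000052684.4, chromosome 4, 95049034 to 95052222), which encodes the founding AP-1 subunit c-Jun, rose from 1.86 to 13.5 FPKM in the authors' deposited table, 7.25-fold (log2 ratio 2.57, Cuffdiff q = 0.0012). It was a minor transcript of its family in both groups: it made up 0.988% of the summed JUN family FPKM in control and 6.25% in knockout cells. The 3 genes summed to 188 FPKM in the control and 216 FPKM in the knockout cells.

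The FOS family was low in both groups. Fos (ENSMUSG00000021250.13, chromosome 12, 85473890 to 85477273), the classical serum-induced gene, stood at 1.90 FPKM in the control and 5.80 FPKM in the knockout cells (log2 ratio 1.39). Its Cuffdiff q of 0.0822 lay outside the threshold, the nearest to it of the members not called. When rebuilt from the deposited test statistic, the q of Fos was 0.753. Fosb, listed at 0.347 and 1.93 FPKM, had a larger log2 ratio of 1.52 but a Cuffdiff q of 0.509. Fosl1, which encodes FRA1, was listed at 0.972 and 2.44 FPKM (log2 ratio 1.00, Cuffdiff q = 0.411). Fosl2, which encodes FRA2, was listed at 0.541 and 1.34 FPKM (log2 ratio 0.82, Cuffdiff q = 0.144). By Cuffdiff q 0 of the 4 were called, and Fos and Fosl2 had an unadjusted Cuffdiff p under 0.05, as did 25.7% of all tested genes. The 4 FOS family genes summed to 3.76 FPKM in the control and 11.5 FPKM in the knockout cells. Summed JUN family transcripts thus exceeded summed FOS family transcripts 50.0-fold in control and 18.7-fold in knockout cells. The FOS sum includes Fosb, Fosl1 and Fosl2, whose direction carries no information of its own, so the change of this ratio is a description only.

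Atf3 (ENSMUSG00000026628.13, chromosome 1, 191170296 to 191218039), a stress-induced member of the ATF branch that can pair with JUN proteins and often represses its targets, showed the widest difference. It rose from 1.98 to 48.4 FPKM in the authors' deposited table, 24.4-fold (log2 ratio 4.30, Cuffdiff q = 0.0012). It stood at percentile 13.2 of the tested genes' levels in control and at percentile 82.4 in knockout cells. In knockout cells its level exceeded the summed level of the FOS family and that of Jun.

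The zinc finger genes rose by smaller factors from higher levels. Egr1 (ENSMUSG00000038418.7, chromosome 18, 34859823 to 34864984), a direct readout of ERK and SRF activity in many cells, rose from 20.9 to 45.4 FPKM in the authors' deposited table, 2.17-fold (log2 ratio 1.10, Cuffdiff q = 0.0012). Klf6 (ENSMUSG00000000078.6, chromosome 13, 5861489 to 5870393), a Kruppel-like factor gene, rose from 5.29 to 14.0 FPKM, 2.65-fold (log2 ratio 1.32, Cuffdiff q = 0.0012). The q of 0.0012 shared by all 4 called genes is the lowest in the table and was given to 472 genes. It comes from the lowest deposited p, 5e-05, and does not rank them. When q was rebuilt from the deposited test statistic, Atf3 (q = 0.000128) and Jun (q = 0.0188) stayed called, while Klf6 (q = 0.245) and Egr1 (q = 0.316) did not. That rule called 0.845% of tested genes higher.

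**Figure D2:**
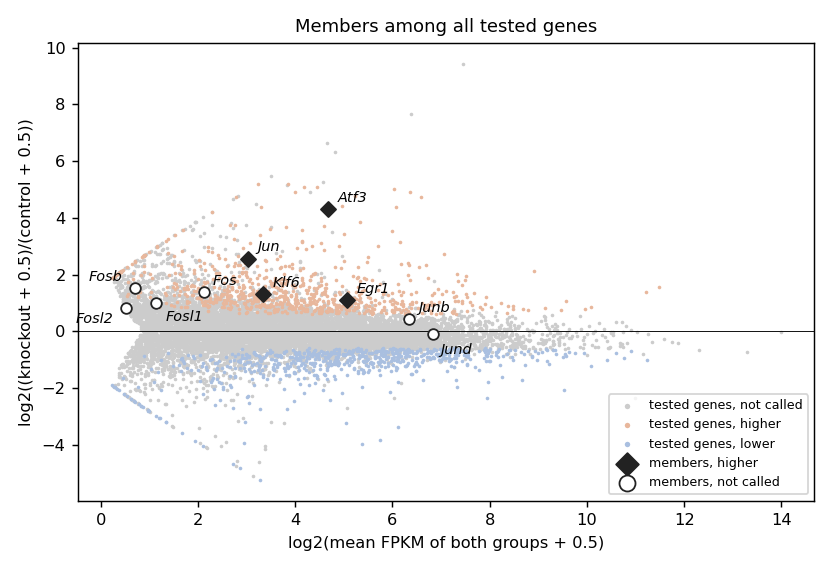
Log2 ratio of knockout over control against log2 mean FPKM for all 11362 tested genes (small points) and the 10 members (black diamonds for called higher, open circles for not called), 1 pooled value per gene and group. Atf3 at 4.30 and Jun at 2.57 lie in the upper edge of the cloud, Junb and Jund at its centre, and Fosb, Fosl1 and Fosl2 at the left, where the scatter of ratios is wide.

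The promoters of Atf3, Jun and Klf6 are shown because these genes were called higher together, and that of Fos because it was the nearest to a call among the other members. Each is printed as the 250 bases before the RefSeq start site (GRCm38.p6, the reference of mm10), 5′ to 3′ on the gene's strand. Capitals mark matches to the motifs named after them:
Atf3 (chr1:191183334-191183583, minus strand): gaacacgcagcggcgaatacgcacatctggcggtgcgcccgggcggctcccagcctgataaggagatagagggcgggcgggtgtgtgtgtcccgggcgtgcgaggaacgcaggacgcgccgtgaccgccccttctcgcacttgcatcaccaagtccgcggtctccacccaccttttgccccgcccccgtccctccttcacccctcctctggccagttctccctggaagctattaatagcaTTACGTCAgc
Jun (chr4:95052223-95052472, minus strand): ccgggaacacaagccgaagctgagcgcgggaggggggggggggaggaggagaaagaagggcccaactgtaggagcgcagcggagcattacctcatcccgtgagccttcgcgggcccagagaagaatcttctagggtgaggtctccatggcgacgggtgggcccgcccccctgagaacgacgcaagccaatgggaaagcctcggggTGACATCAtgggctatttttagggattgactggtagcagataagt
Klf6 (chr13:5861239-5861488, plus strand): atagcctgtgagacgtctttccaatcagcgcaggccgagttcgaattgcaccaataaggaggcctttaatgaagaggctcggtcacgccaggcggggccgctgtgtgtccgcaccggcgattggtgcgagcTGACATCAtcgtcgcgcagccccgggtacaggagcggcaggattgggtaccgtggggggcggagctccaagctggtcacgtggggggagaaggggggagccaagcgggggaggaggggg
Fos (chr12:85473640-85473889, plus strand): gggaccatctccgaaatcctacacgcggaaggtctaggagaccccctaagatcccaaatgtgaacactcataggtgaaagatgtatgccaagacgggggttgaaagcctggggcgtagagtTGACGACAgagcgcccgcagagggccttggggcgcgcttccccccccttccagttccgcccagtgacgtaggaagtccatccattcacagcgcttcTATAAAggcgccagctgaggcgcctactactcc

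In windows from 250 bases before to 50 bases after the start, 6 motifs were searched on both strands in the 8 members with a sequence at hand. Egr1 and Fosl1 are named only. The AP-1 motif TGAGTCA, the CRE motif TGACGTCA, the CArG box bound by SRF and the ATF4 motif TGATGCAAT had 0 matches in the 8 windows. Over 32851 RefSeq promoter windows, 5.20%, 1.79%, 1.63% and 0.192% held them. The EGR motif (GCGTGGGCG or GCGGGGGCG, in 3.47% of all windows) matched in Fosl2, 79 bases before the start, and in Fosb, 50 bases before it. TATAAA, in 13.6% of all windows, matched in Fos 33 bases before the start. It also matched in Junb from the RefSeq start itself, which lies 30 bases before the 5′ end of Junb in the authors' deposited table. Outside these windows nothing was searched.

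A search for the CRE motif with at most 1 mismatch was added after the sequences had been seen. It matched in 4 of the 8 windows, against 12.5% of all windows. Jun (45 bases before the start) and Klf6 (119 bases before it) held the same variant, TGACATCA. Atf3 held TTACGTCA 10 bases before the start and Fos held TGACGACA 129 bases before it. Fosb, Fosl2, Junb and Jund had no such match. Of the 8 windows, 7 were above the median promoter both in GC content and in the ratio of observed to expected CpG dinucleotides, whose median over all windows was 0.384. The CpG ratio was 0.867 in Atf3, 0.594 in Jun, 0.844 in Klf6, 0.775 in Fos, 0.666 in Junb, 0.735 in Fosb and 1.03 in Fosl2. Jund stood apart with 0.184, but its RefSeq start lies 1210 bases before the 5′ end in the authors' deposited table. The Atf3 window likewise may not hold the start in use, since the table's locus entry begins 34706 bases further upstream.

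The genes are compact. The locus entries of 9 of the 10 members were shorter than the median tested gene of 26586 bases, from 1668 bases for Jund to 22042 bases for Fosl2, and Atf3 spanned 47744 bases. None shared its entry with another gene (0 genes). Since neighbouring genes can differ together along a chromosome, each member was set beside the 10 nearest tested genes on each side. Atf3, Jun, Fos, Fosb and Klf6 were each above all of these neighbours, which numbered 20, or 15 for Klf6 near the end of its chromosome. For Fosb this was favoured by the filter, since it could be tested only because it was higher in knockout cells. The neighbours of Jun had a median log2 ratio of -0.29 and those of Atf3 of 0.17. Egr1 was above 19 of 20 neighbours, whose median was 0.25 and of which 4 were called higher. With 20 genes on each side that median was -0.04. Jund, the only member lower in knockout cells, lay among genes with a median of -0.44, of which 5 were called lower and 2 higher, and it was above 16 of them. Around Junb the median was -0.14 and 0 of 20 were called.

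**Figure D3:**
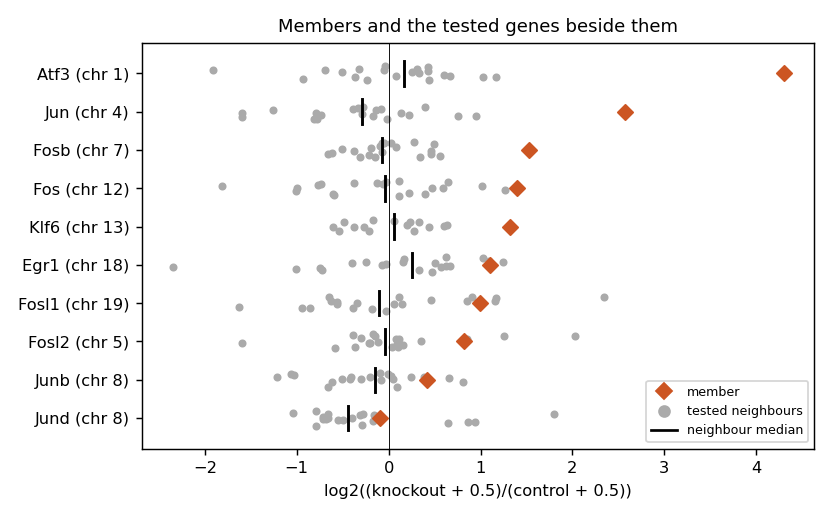
Log2 ratio of knockout over control for each member (diamond) and its nearest tested genes, 10 on each side where available (grey points), with the neighbours' median as a bar. Atf3, Jun, Fosb, Fos and Klf6 lie to the right of all their neighbours, while Jund lies among genes whose median is -0.44.

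Among 11 other AP-1 and MAF family genes, 8 were tested, 3 were called higher, 0 lower and 5 stayed uncalled. All 3 calls were lost when q was rebuilt from the test statistic. Mafk, a small MAF gene whose protein lacks an activation domain, rose from 5.79 to 27.4 FPKM (log2 ratio 2.15, Cuffdiff q = 0.0012). Jdp2, which encodes a JUN-dimerising repressor, rose from 34.8 to 84.6 FPKM (log2 ratio 1.27, Cuffdiff q = 0.0012), and Maff, another small MAF gene, from 13.6 to 27.5 FPKM (log2 ratio 0.99, Cuffdiff q = 0.00896). Atf2 (10.7 and 14.9 FPKM), Atf7 (15.1 and 14.1 FPKM), Mafg (46.9 and 37.6 FPKM), Maf (0.0850 and 1.44 FPKM) and Batf3 (3.31 and 0.512 FPKM) were not called. The median log2 ratio of the tested genes in this list was 0.72, beside -0.0035 over all tested genes, of which 6.90% were called higher and 6.03% lower. Maf, under 1 FPKM in control cells, could be tested only because it was higher in knockout cells. Batf3, under 1 FPKM in knockout cells, could be tested only because it was higher in control cells.

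The other immediate early genes held calls in both directions. Of 44 listed, 36 were tested, 6 were called higher, 3 lower and 27 stayed uncalled, with a median log2 ratio of 0.12. That median includes Nfkbiz (0.529 and 2.83 FPKM) and Gem (0.767 and 1.42 FPKM). Both could be tested only because they were higher in knockout cells. Over all tested genes, 6.90% were called higher and 6.03% lower. The list is too short for its 3 lower calls to stand apart from that lower share. With q rebuilt from the test statistic, 2 were higher and 1 lower. Those called higher were led by the matricellular genes Ctgf (9.21 to 53.9 FPKM) and Cyr61 (16.1 to 61.8 FPKM), the small GTPase gene Rhob (5.34 to 13.9 FPKM) and the antiproliferative gene Btg2 (7.85 to 18.3 FPKM). The genes called lower were Ier5l (21.4 to 4.88 FPKM), Gadd45b (35.1 to 12.2 FPKM) and the kinase gene Sik1 (62.1 to 26.7 FPKM). Several textbook immediate early genes were not called: Ier2 (167 and 149 FPKM), the phosphatase gene Dusp1 (54.5 and 53.1 FPKM), the orphan receptor gene Nr4a1 (29.4 and 23.9 FPKM), Myc (39.0 and 35.3 FPKM) and Zfp36 (2.84 and 3.14 FPKM). Egr2 (0.0724 and 1.03 FPKM), Egr3 (listed at 0 and at 0.234 FPKM) and Egr4 (0.292 FPKM and listed at 0) were among the 8 not tested.

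The genes of the kinases and factors that induce this group were called at about the share of all tested genes (6.90% higher, 6.03% lower). Of 28 tested MAP kinase cascade genes, 1 was called higher, 1 lower and 26 stayed uncalled, with a median log2 ratio of -0.02. Map2k7, a kinase of the JNK branch, rose from 48.8 to 95.7 FPKM (Cuffdiff q = 0.00896), and Map2k2, a kinase of the ERK branch, fell from 140 to 82.3 FPKM (Cuffdiff q = 0.00953). The calls of this list and of the next 2 were all lost when q was rebuilt from the test statistic. The table holds a second Map2k7 entry, listed at 0 in both groups. Of 14 tested SRF, ternary complex and CREB factor genes, 1 was called higher, the CREB coactivator gene Crtc1 (2.58 to 5.38 FPKM, Cuffdiff q = 0.0262), and 0 lower. Crtc3 (0.335 and 1.53 FPKM), which was not called, could be tested only because it was higher in knockout cells. Transcript levels say nothing of kinase activity. Among 18 tested inhibitor and turnover genes, Spry1 was called higher (6.30 to 12.7 FPKM, Cuffdiff q = 0.0352) and Spred2 lower (62.2 to 38.6 FPKM, Cuffdiff q = 0.0258), both inhibitors of ERK signalling. The EGR corepressor gene Nab2 (27.6 and 18.3 FPKM) and Fbxw7 (39.4 and 26.5 FPKM), a ubiquitin ligase subunit that marks JUN for degradation, were not called.

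Among 24 genes known as AP-1 targets in other cells, 14 were tested. Of these, 6 were called higher, 0 lower and 8 stayed uncalled, beside 6.90% higher and 6.03% lower over all tested genes. Their median log2 ratio was 0.96. It includes Cd44, which could be tested only because it was higher in knockout cells. Lif, one of the calls, was in the range under 2 FPKM in control cells, where tested genes had a median log2 ratio of 0.81. With q rebuilt from the test statistic, 3 were called higher. Plaur, the urokinase receptor gene, rose from 10.3 to 50.2 FPKM, Spp1 from 82.8 to 259 FPKM, Lif from 1.22 to 4.30 FPKM and Clu from 3.40 to 126 FPKM, all in the authors' deposited table. Vegfa and Hbegf were the other 2 called, and Hbegf is also counted among the higher calls of the other immediate early genes. Cd44 (0.175 and 8.67 FPKM, Cuffdiff q = 0.474), Ccnd1 (58.8 and 49.3 FPKM) and Vim (60.7 and 42.2 FPKM) were not called. The metalloproteinase genes Mmp10 and Mmp13 were listed at 0 in both groups, and Mmp3 and Mmp9 were under 1 FPKM. These genes have many regulators besides AP-1.

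All 11 listed genes of the stress response linked to Atf3 were tested. Of these, 6 were called higher, 0 lower and 5 stayed uncalled, beside 6.90% higher and 6.03% lower over all tested genes. Their median log2 ratio was 0.86. With q rebuilt from the test statistic, 2 were called higher. Atf4, a translationally induced activator upstream of Atf3, rose from 114 to 294 FPKM, Chac1 from 31.7 to 156 FPKM, Trib3 from 21.9 to 59.8 FPKM and Cebpb from 8.40 to 19.0 FPKM. Ddit3, which encodes CHOP, stood at 63.8 and 114 FPKM and was not called (Cuffdiff q = 0.496). Nor were Cebpg (26.4 and 48.2 FPKM), Ppp1r15a (33.9 and 48.5 FPKM), Asns (136 and 183 FPKM) and Atf5, which was lower (83.3 and 74.0 FPKM). Among 10 tested heat shock genes, 0 were called by Cuffdiff q in either direction and 1 had an unadjusted p under 0.05, beside 12.9% and 25.7% of all tested genes, so the list is too short for the 0 to stand apart. Its median log2 ratio was -0.12. Hspb1 was at 184 and 160 FPKM, Dnajb1 at 35.8 and 36.3 FPKM, and Hspa1a (0.131 and 0.340 FPKM) and Hspa1b (1.00 and 1.20 FPKM) were not tested.

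**Figure D4:**
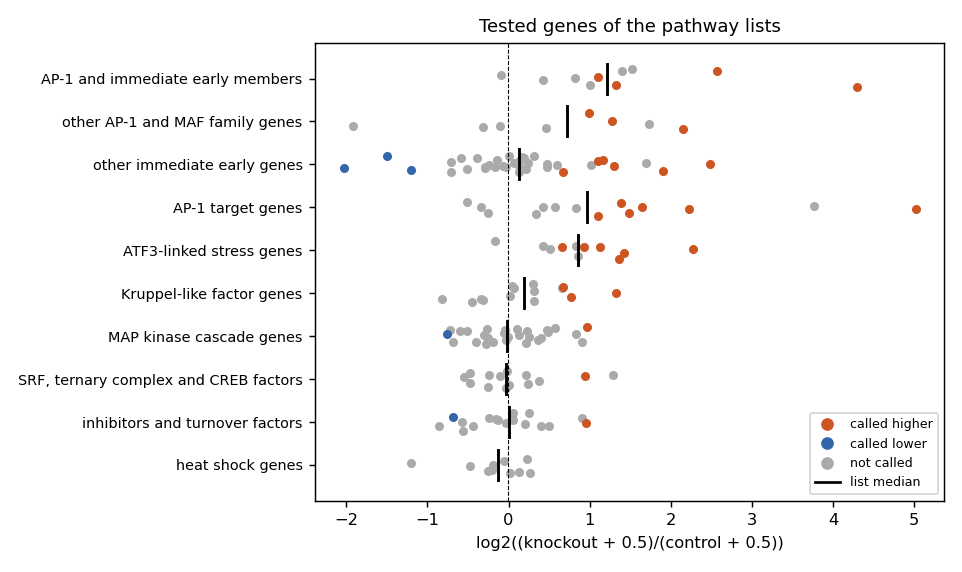
Log2 ratio of knockout over control for the tested genes of each list (points; orange called higher, blue called lower, grey not called), with list medians as bars and the median of all tested genes as a dashed line. Medians of the AP-1 target (0.96), stress (0.86) and other AP-1 and MAF (0.72) lists lie to the right of the dashed line, while those of the MAP kinase (-0.02) and heat shock (-0.12) lists lie near or left of it.

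Markers of the cell types that the cultures could hold were set beside these genes. All 10 embryonic stem cell markers were tested and present, from 34.0 FPKM (Tfcp2l1) to 1481 FPKM (Dppa5a) in control cells, with 2 called higher, 1 lower and 7 not called. They summed to 5508 FPKM in the control and 5290 FPKM in the knockout cells. Of 14 tested primitive endoderm markers, 11 were called higher and 0 lower, beside 6.90% higher and 6.03% lower over all tested genes. Sox17, Sox7, Dab2, Foxa2, Cubn and Amn were under 1 FPKM in control cells. They could be tested only because they were higher in knockout cells, and Sox7, Dab2 and Cubn are among the calls. The other tested markers were above 1 FPKM in control cells and were all called higher. The summed level of all 16 markers went from 236 to 1597 FPKM. Of the visceral endoderm markers in that list, the uptake receptor gene Cubn rose from 0.279 to 5.10 FPKM (Cuffdiff q = 0.0012), its partner gene Amn stood at 0.356 and 11.5 FPKM without a call (Cuffdiff q = 0.499), and Ttr (listed at 0 and at 1.29 FPKM) and Afp (listed at 0 and at 0.0945 FPKM) were not tested. Fibroblast markers summed to 9.24 and 16.7 FPKM over 12 genes, of which 3 were tested and 0 called. These 3 were Thy1 (5.14 and 11.4 FPKM), which held the largest part of both sums, Twist1 (2.18 and 3.39 FPKM) and Pdgfrb (1.72 and 0.608 FPKM). Pdgfrb, under 1 FPKM in knockout cells, could be tested only because it was higher in control cells. Col1a1 (0.142 and 0.773 FPKM) was not tested, and Col3a1, Dcn, Postn, Fap and Twist2 were listed at 0 in both groups. In these bulk libraries, more cells of a type and more RNA per cell cannot be told apart, and the part of the primitive endoderm markers in the levels of Atf3, Jun, Klf6 and Egr1 was not tested.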

How the data were processed

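RNA-seq of polyadenylated RNA from 3 control and 3 knockout cultures was analysed from 1 gene table. Per the submitters' processing notes, Cuffdiff 2.2.1.3, TopHat2 2.1.0, Bowtie 1.0 and deepTools were used, and the builds named are mm10 and mm9, with no role given. FPKM values were made by the authors as 1 pooled value per group, per the file headers. The authors deposited a log2 fold change without pseudocount, a test statistic (a score), and a p-value and q-value. Locus entries overlapped the RefSeq gene on GRCm38.p6 for 99.9% of 21105 matched symbols, so coordinates are given as mm10, 1-based.

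Of 22462 genes, 11098 were NOTEST and 2 FAIL. Log2 ratios used a pseudocount of 0.5. All FPKM summed to 559237 (control) and 504845 (knockout). Depth is unknown, and no counts, replicate SD or leave-one-out could be computed. The members and lists were chosen with earlier results of these data known. Genes were named by rule: every member, Mtf2, up to 4 calls per direction and list, any tested gene of short lists, markers, and the 3 tested genes nearest each called member in both groups' log2 values. Other genes were chosen with their values in view. Alternatives were a q of 0.01, a 2-fold minimum, FPKM filters of 1 and 5, a normal p from the test statistic (126 genes without a finite statistic left out), pseudocounts of 0.1 and 1, and scaling to equal summed FPKM or median. Neighbour and motif code was tested on simulated data. Protein sequences were not used here. Python 3.11.15, pandas 2.3.3, numpy 2.4.6 and scipy 1.17.1 were used.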

Additional observations from a re-analysis of the deposited data

How the results depend on the processing

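No paired analysis was possible because the table holds 1 pooled value per group, and for the same reason no library could be left out. Of 10 members, 4 were called at a q of 0.05, at a q of 0.01, at a 2-fold minimum and with either FPKM filter, and 2 when q was rebuilt from the test statistic as a normal p. Of all genes tested under these rules, 6.90%, 3.86%, 4.99%, 6.69% (FPKM of 1), 8.07% (FPKM of 5) and 0.845% were called higher. Fosb, Fosl1 and Fosl2 pass neither FPKM filter, so under those filters the 4 calls are out of the other members only. Of 40 log2 ratios of members recomputed with other pseudocounts or scalings, 39 kept their direction. Jund turned from -0.10 to 0.048 when both groups were scaled to equal summed FPKM, a setting that moves the median of all tested genes from -0.0035 to 0.14, so Jund stayed below that median.

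With the normal p, higher calls were 0 in the other AP-1 and MAF, MAP kinase, SRF and CREB, inhibitor and Kruppel-like lists, 2 in the other immediate early list (1 lower), 3 in the AP-1 target list and 2 in the stress list, lower calls were 0 in the MAP kinase and inhibitor lists, and Mtf2 had a q of 0.755. At a q of 0.01 the other immediate early list had 3 higher calls, the SRF and CREB list 0, and the inhibitor list 0 higher and 0 lower. Higher calls went to 4 in the AP-1 target list, 4 in the stress list and 2 in the Kruppel-like list, and lower calls to 2 in the other immediate early list. The normal p calls 124 genes of 11236 in all, against 1469 of 11362 with the deposited q. Among the marker lists, it called 12 primitive endoderm genes, against 11 with the deposited q. Some of these 12 could be tested only because they were higher in knockout cells. It called 0 embryonic stem cell and 0 fibroblast markers. Medians of neighbours with 5 or 20 genes on each side stayed inside the interquartile range of the values reported, but changed sign for Egr1 (-0.04), Klf6 (-0.21) and Fosl2 (0.04) with 20 and for Fosb (0.0019) with 5. Matches to any of the 6 motifs were found in 4 members, in 3 before the start site alone, and in 7 with the CRE motif at up to 1 mismatch, a search chosen after the sequences were seen. Pooled values limit every statement to the authors' own estimate of the spread.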

Other observations

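In the Kruppel-like factor family, to which Klf6 belongs, 14 of 17 genes were tested. Of these, 3 were called higher, Klf6 among them, 0 lower and 11 stayed uncalled, beside 6.90% higher and 6.03% lower over all tested genes. Their median log2 ratio was 0.19. All 3 calls were lost when q was rebuilt from the test statistic. Klf5, a gene that supports self-renewal of embryonic stem cells, rose from 305 to 522 FPKM (Cuffdiff q = 0.00454 in the authors' deposited table), and Klf10 from 32.4 to 51.7 FPKM (Cuffdiff q = 0.0336). Klf10 is also counted among the higher calls of the other immediate early genes. Klf2 (199 and 248 FPKM) and Klf4 (131 and 137 FPKM), which also count as immediate early genes in other cells, were not called.

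Over the pooled values of both groups, the tested genes nearest to each called member were listed by their distance in log2(FPKM + 0.5). Nearest to Atf3 were Car4 (2.24 and 58.8 FPKM), the tissue factor gene F3 (2.88 and 44.4 FPKM) and the endoderm factor gene Gata4 (2.17 and 71.7 FPKM), at distances of 0.31 to 0.57. Nearest to Jun were Ccdc25, Dnajc3 and Rnaseh2b, all on chromosome 14, at distances of 0.08 to 0.11. Nearest to Klf6 were Rhob, another immediate early gene, Nfatc4 and Ccdc28b, and nearest to Egr1 were Dstn, Nop58 and Atp6ap1. Gata4 and Nfatc4 lie on chromosome 14 as well, while Jun is on chromosome 4. Whether the genes of chromosome 14 differ between the groups as a whole was not tested. With 2 values per gene such likeness is only a shared position in level.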
